A study of Arabidopsis thaliana with 9 samples.

Results

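The genes described here are 92 nuclear genes of Arabidopsis thaliana whose transcript signal was higher in both sps1 and L17 seedlings than in wild type seedlings. They were chosen by these values. A probe set is the group of short array probes that reads the RNA of a gene, and its signal is an intensity on a linear scale. Signals were analysed as log2(signal + 16), a scale on which a difference of 1 stands for a change of at least 2-fold in signal. Probe sets that name 1 gene were kept where the sps1 mean minus the wild type mean and the L17 mean minus the wild type mean were both 1 or higher, and where all 3 wild type arrays lay below all 6 other arrays. Of the 22746 probe sets tested, 110 that name 1 gene met these values. From them 16 plastid and 2 mitochondrial genes were left out, and 0 of the rest had a symbol that begins with CYP or UGT. The 92 genes that remained make up 0.694% of the 13259 nuclear genes named by a probe set of their own, out of 13350 such genes in all.

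The study held whole seedlings of 3 lines, with 3 arrays each: a line named sps1, a line named L17 that the labels call a phyA' line, and wild type. All seedlings were 10 days old, had been kept in darkness on plates and had received no treatment. Col-0 is given as the background of all 3 lines. The labels do not say which allele or transgene sps1 or L17 carries, and they leave unsaid whether the 3 arrays of each line came from separate cultures, so the p-values speak only of the spread among these arrays. In whole seedlings, fewer cells of a type and less RNA per cell cannot be told apart.

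A seedling that germinates in the dark lengthens its stem, keeps its seed leaves closed and holds its plastids in an unfinished form called etioplasts. These store protochlorophyllide, the last chlorophyll precursor before the step that needs light, together with the oxidoreductase that carries out that step. Phytochrome A is a photoreceptor that builds up in such seedlings and starts the change to growth in light when they are first exposed to it. The genes with a name of their own below take part in chlorophyll formation and carbon fixation, in folate synthesis, in defence and detoxification, in transport, in cell wall and protein turnover, and in RNA and DNA methylation.

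The arrays had median signals of 137.6 to 155, and the share of probe sets with a signal under 16 was 16.5% to 21.3%. The third wild type array stood apart. There, 2838 probe sets lay more than 2-fold away from the average of the remaining wild type arrays, and the same count was 440 to 1085 on the other 8 arrays. Across probe sets, which are not independent, its log2 values correlated at 0.954 with either of the other wild type arrays, which correlated at 0.985 with each other. In 44 of the 92 genes (47.8%) the lowest wild type signal was that of this array, against 35.8% of nuclear probe sets. Without this array the same rule was met by 100 genes, 71 of them among the 92. Ubiquitin control probes read both ends of the RNA, and their 3' over 5' ratio, which rises as RNA breaks down, was 2.49 ± 0.066 in sps1, 2.32 ± 0.103 in L17 and 1.85 ± 0.0915 in wild type (SD, n = 3; exact two-sided permutation p = 0.1 for each line against wild type, which is the lowest that 3 arrays a line can give). The same ratio for actin averaged 2.70 ± 0.105 in sps1, 2.68 ± 0.342 in L17 and 2.65 ± 0.404 in wild type (SD, n = 3 each, exact two-sided permutation p = 0.8 for each line against wild type). For GAPDH it averaged 1.70 ± 0.167 in sps1, 1.58 ± 0.234 in L17 and 1.42 ± 0.112 in wild type (SD, exact two-sided permutation p = 0.1 for sps1 and 0.4 for L17 against wild type). An older actin probe pair gave 22.4 in sps1, 20.6 in L17 and 19.3 in wild type (exact two-sided permutation p = 0.5 for sps1 and 0.6 for L17 against wild type). The part of these ratios and of the third wild type array in the differences from wild type was not tested.

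Across the 92 genes, sps1 minus wild type had a median of 1.58 on the log2(signal + 16) scale, with a range from 1.00 to 4.39. L17 minus wild type had a median of 1.52, with a range from 1.01 to 4.54. Over all 22746 probe sets the same medians were -0.01 and 0.01. Both differences reached 2 or more in 20 genes and 3 or more in 7. The gap between the highest wild type array and the lowest of the 6 other arrays had a median of 0.80 and was 1 or more in 33 genes. These values chose the genes and are a description. Limma's moderated test, with p-values adjusted over all probe sets and a threshold of 0.05, called 85 of the 92 genes in sps1 against wild type, where 14.6% of all probe sets were called, 6.68% as higher and 7.94% as lower. It called 80 in L17 against wild type, where 11.4% of all probe sets were called, 5.32% as higher and 6.12% as lower. In both lines 76 genes were called. These 2 comparisons share the wild type arrays and the rule read them, so nothing further is read from these counts.

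**Figure D1:**
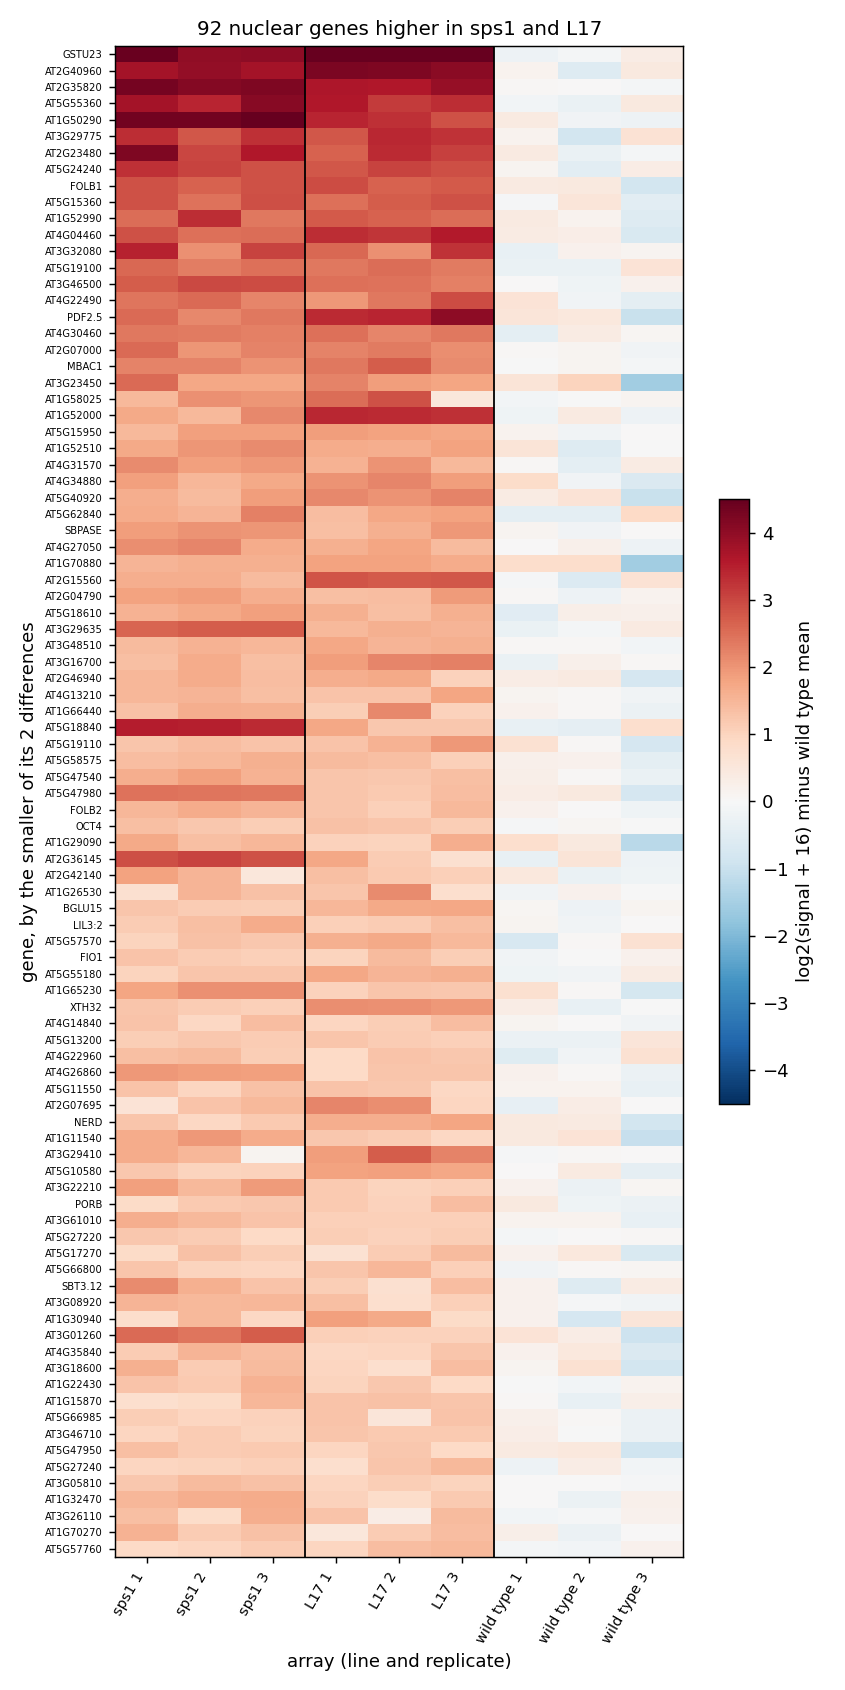
Each row is 1 of the 92 genes, ordered by the smaller of its 2 differences from wild type, and each column is 1 array. Colour gives log2(signal + 16) minus the wild type mean of that gene. The 6 sps1 and L17 columns are red throughout apart from a few pale cells, such as the third L17 array for AT1G58025 with a signal of 10.1, and blue cells in the third wild type column mark genes below their wild type mean there.

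The choice has a sharp edge that cuts through close values. Just inside it, AT5G57760 had a smaller difference of 1.003, AT1G70270 of 1.0074 and AT3G26110 of 1.0126. Just outside, AT4G26370 had 0.99999, AT4G34290 had 0.99239 and AT1G14390 had 0.99024. A further 4 nuclear genes met both differences but had a wild type array that overlapped the other lines. RefSeq gives 14 of the 92 genes a symbol, and 78 are known here by their locus ID only, so no role is given to those 78 except for 1 that carries a name among its synonyms.

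Among the 92 genes, 3 with a name act in chlorophyll formation and carbon fixation. PORB encodes protochlorophyllide oxidoreductase B, an enzyme that reduces protochlorophyllide in light. Its signal was 3596, 4479 and 4669 in sps1, 4486, 4054 and 5188 in L17, and 2730.1, 1725 and 1673 in wild type. The sps1 and L17 arrays overlapped each other, and the first wild type array was well above the other 2 wild type arrays but still below every sps1 and L17 array. LIL3:2, a light-harvesting-like membrane protein that is known to support chlorophyll synthesis, read 3875, 4532 and 5632 in sps1, 3671, 3848 and 4496 in L17, and 1928, 1569.6 and 1773 in wild type. SBPASE encodes sedoheptulose-bisphosphatase, an enzyme of the Calvin cycle, and read 1394, 1564 and 1521 in sps1, 981, 1153 and 1464 in L17, and 405, 335 and 377 in wild type. For both genes the wild type arrays were tightly grouped below all others, and sps1 overlapped L17. The differences from wild type were 1.08 in sps1 and 1.19 in L17 for PORB, 1.39 and 1.18 for LIL3:2, and 1.96 and 1.63 for SBPASE, each time with sps1 given before L17. Without the second or without the third wild type array, PORB no longer met the rule.

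The 92 genes hold none of the 8 nuclear genes of the photosystems, light-harvesting proteins and Rubisco activase that were named here. In sps1 against wild type 4 of these 8 were called higher, 1 lower and 3 not called. In L17 against wild type 1 was called higher, 1 lower and 6 not. LHCB4.2, a minor antenna protein of photosystem II, was called lower in both lines, with differences from wild type of -0.84 in sps1 and -1.15 in L17. In sps1 against L17, 4 of the 8 were called, all higher in sps1, where 3.14% of all probe sets were called higher. Among the 4 was RCA, which encodes Rubisco activase, with a difference of 0.65 (limma adjusted p = 0.0337). PORB, LIL3:2 and SBPASE were not called in that comparison.

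Both FOLB genes named on the array were among the 92. They encode dihydroneopterin aldolases, which make the pterin part of folate, the vitamin that carries single-carbon units. FOLB1 read 349, 303 and 346 in sps1, 372, 299.8 and 324 in L17, and 50.4, 51.8 and 12.03 in wild type. All wild type arrays lay far below the others, with the third wild type array lowest of all, and the sps1 and L17 arrays were intermixed. FOLB2 read 804, 902 and 824 in sps1, 682, 592 and 789.9 in L17, and 318, 277 and 236 in wild type, with every sps1 array above every L17 array. The difference from wild type was 2.79 in sps1 and 2.79 in L17 for FOLB1, and it was 1.56 in sps1 and 1.27 in L17 for FOLB2. Between sps1 and L17, FOLB1 differed by 0.01 (95% interval -0.70 to 0.71, limma adjusted p = 0.996) and FOLB2 by 0.29 (95% interval -0.06 to 0.65, limma adjusted p = 0.350), neither past the threshold. The pair was looked up as a list after their values had been seen.

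GSTU23 had the largest shared difference of all. It encodes a glutathione transferase of the tau class, enzymes that attach glutathione to reactive and foreign compounds. Its signal was 880.1, 635 and 647 in sps1, 974, 904 and 905 in L17, and 18.6, 22.0 and 35.2 in wild type. Both lines were far above all 3 wild type arrays, and every sps1 array was below every L17 array. The differences from wild type were 4.16 in sps1 and 4.54 in L17, and sps1 minus L17 was -0.37 (95% interval -0.80 to 0.06, limma adjusted p = 0.319), not past the threshold. The other named glutathione transferases did not share this pattern: of 14, GSTU23 was the 1 called higher in sps1 against wild type, 3 were called lower and 10 were not called, and in L17 against wild type 1 was called higher, 2 lower and 11 not. GSTU22 was lower in both lines, at 876, 784 and 769.8 in sps1, 862, 649.5 and 623 in L17, and 2659.8, 2389 and 1846 in wild type. GSTU16 was lower in sps1, at 33.9, 58.9 and 52.4 in sps1, 625, 442 and 449 in L17, and 442, 475 and 483 in wild type. GSTU25 was also called lower in sps1, with a difference of -3.48, but the third wild type array read 1714 while the remaining wild type arrays read 262 and 257.

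PDF2.5 encodes a plant defensin, a small cysteine-rich protein of the kind that acts against fungi. Its signal was 282, 212 and 244 in sps1, 506, 529 and 810.1 in L17, and 58.4, 53.8 and 8.96 in wild type. Every L17 array exceeded every sps1 array, and the third wild type array was far below the other 2. The differences from wild type were 2.36 in sps1 and 3.61 in L17. The difference between sps1 and L17 was -1.24 with a 95% interval of -2.14 to -0.35, and it missed the threshold (limma adjusted p = 0.108). Without the third wild type array, which enters that comparison through the shared estimate of spread alone, the adjusted p was 0.00785. Of 15 genes matched by defensin or cysteine-rich protein symbols, 3 were called higher, 2 lower and 10 not called in sps1 against wild type. In L17 against wild type 2 were called higher, 1 lower and 12 not. PDF1A and PDF1B were matched by their letters alone, and they are peptide deformylases and not defensins. PDF1A was among the genes called higher in sps1, with a difference of 0.64. PDF1.4 was called in opposite directions, with 219.9, 253 and 320.0 in sps1, 1529, 1491 and 1308 in L17, and 576, 514 and 726 in wild type. The locus AT5G18610 carries the name PBL27 among its synonyms, a receptor-like cytoplasmic kinase that is known to relay chitin perception. It read 122, 137 and 153 in sps1, 127, 104 and 127 in L17, and 17.2, 40.8 and 38.7 in wild type, with all 3 wild type arrays below the rest and the lines overlapping each other. Of 7 genes matched by a kinase name, PBL27 and PRK were called higher in both lines and 5 were called in neither, and PRK, PPDK and PWD among them are metabolic enzymes and not protein kinases.

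**Figure D2:**
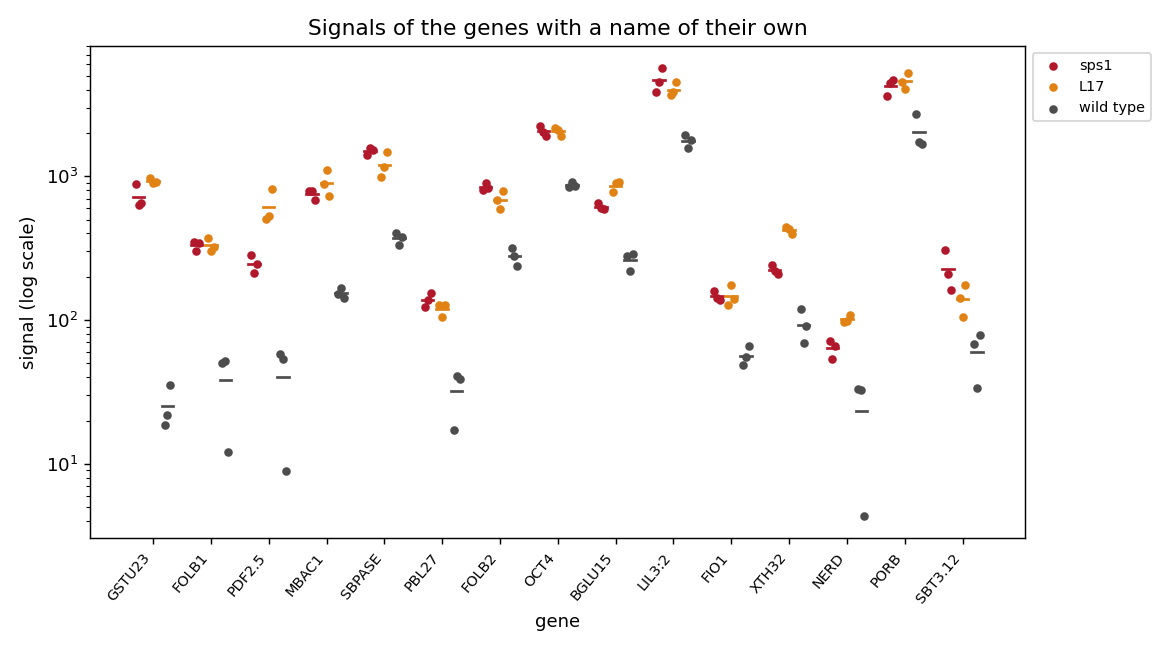
Signal of the 15 genes with a name of their own on a log axis, in order of the smaller difference from wild type, with sps1, L17 and wild type from left to right for each gene. Points are arrays and lines are means of 3 arrays. All wild type points lie below the other points of the same gene, and the third wild type array is the low outlying point of FOLB1, PDF2.5 and NERD, at 12.03, 8.96 and 4.37.

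A pair of named transporters was among the 92. MBAC1 encodes a carrier of basic amino acids such as arginine in the inner mitochondrial membrane. Its signal was 792, 789 and 682 in sps1, 876, 1099.6 and 730.0 in L17, and 153, 168 and 143 in wild type, with small spread in wild type and no separation of sps1 and L17. OCT4 encodes a transporter of the organic cation and carnitine family. Its signal was 2234, 2037 and 1892 in sps1, 2169.7, 2107 and 1897 in L17, and 842, 914 and 850.2 in wild type, and the wild type arrays covered only 0.12 on the log2(signal + 16) scale, among the 3 narrowest wild type ranges of the 92 genes. The differences from wild type were 2.17 in sps1 and 2.41 in L17 for MBAC1, and 1.22 in sps1 and 1.23 in L17 for OCT4. The interval of sps1 minus L17 for OCT4 ran from -0.29 to 0.28. Of 43 transporter genes named here, 4 were called higher, 4 lower and 35 not called in sps1 against wild type, and 2 higher, 3 lower and 38 not in L17 against wild type. OCT1, of the same family as OCT4, was called lower in sps1, at 501, 434 and 333 in sps1, 959, 1407 and 1369 in L17, and 1139, 1164 and 745 in wild type.

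XTH32 and BGLU15 act on sugar polymers and sugar conjugates. XTH32 encodes a xyloglucan endotransglucosylase/hydrolase, an enzyme that cuts and rejoins the xyloglucan chains of the cell wall. Its signal was 240.4, 220.2 and 209 in sps1, 441, 429 and 396 in L17, and 119, 69.7 and 90.4 in wild type, so that the 3 lines formed separate groups with L17 highest. The difference between sps1 and L17 was -0.87 ± 0.17 (SE, limma adjusted p = 0.0196), past the threshold. Leaving out any L17 array or the second or the third sps1 array ended this call, with adjusted p-values up to 0.0756, and without the second wild type array XTH32 no longer met the rule against wild type. Among the 10 XTH genes named here, looked up after the values were seen, 2 were called higher, 2 lower and 6 not in sps1 against wild type, and 2 higher, 1 lower and 7 not in L17 against wild type. In sps1 against L17, 3 of them were called, all lower in sps1, where 3.72% of all probe sets were called lower. XTH16 was lower in both lines, at 387, 471 and 549.8 in sps1, 786, 784 and 741 in L17, and 1461, 1176 and 1158 in wild type. BGLU15 encodes a beta-glucosidase, an enzyme that releases glucose from conjugates, and read 648, 604 and 589 in sps1, 772, 891 and 914 in L17, and 281, 219.5 and 289 in wild type. Again L17 was highest with no overlap between lines, but sps1 minus L17 was -0.47 (95% interval -0.80 to -0.14, limma adjusted p = 0.0977) and missed the threshold. Of 22 beta-glucosidases, 3 were called higher, 2 lower and 17 not in sps1 against wild type, and 3 higher, 0 lower and 19 not in L17 against wild type. BGLU19 was called in opposite directions, at 65.8, 27.0 and 28.5 in sps1, 1382, 923 and 898 in L17, and 411, 368 and 287 in wild type.

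SBT3.12 encodes a subtilase, a secreted serine protease. Its signal was 305, 208 and 161 in sps1, 143, 105 and 175 in L17, and 67.96, 33.6 and 79.3 in wild type, with wide spread in every line and overlap between sps1 and L17. Without the second wild type array or the third L17 array it no longer met the rule. Of 10 subtilases 2 were called higher, 1 lower and 7 not in sps1 against wild type, and 0 higher, 2 lower and 8 not in L17 against wild type. SBT3.5 was lower in both lines, with differences of -1.75 in sps1 and -2.11 in L17. FIO1 and NERD act on the methylation of nucleic acids. FIO1, first described for its effect on the period of the circadian clock, is a methyltransferase that modifies RNA. It read 159, 142 and 137 in sps1, 127, 176 and 140.3 in L17, and 48.4, 55.3 and 65.8 in wild type, and sps1 minus L17 was -0.01 with a 95% interval of -0.36 to 0.35. NERD, needed for a route of RNA-directed DNA methylation that does not use RDR2, had low signals, with 71.1, 53.6 and 66.2 in sps1, 97.3, 97.9 and 108 in L17, and 33.2, 32.7 and 4.37 in wild type. L17 was above sps1 on every array, and the third wild type array was under 16. The difference between sps1 and L17 was -0.56 for NERD (limma adjusted p = 0.370, and 0.0255 without the third wild type array), and without that array NERD no longer met the rule against wild type.

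Several other lists of gene names were matched as well. None of the 92 genes was among the 61 transcription factors, the 14 F-box and ubiquitin ligase genes or the 15 auxin and gibberellin genes named here. Of the transcription factors 2 were called higher, 1 lower and 58 not in sps1 against wild type, and 1 higher, 2 lower and 58 not in L17 against wild type. Of the F-box and ubiquitin ligase genes 3 were called higher and 4 lower in sps1, and 1 higher and 0 lower in L17. Of the auxin and gibberellin genes 2 were called higher and 2 lower in sps1, and 1 higher and 0 lower in L17. The symbols searched for lipid transfer proteins and heat shock proteins matched no gene, which does not mean that the array lacks such genes. A pair of small heat shock protein genes, AT1G53540 and AT2G29500, was looked up by locus ID instead.

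Markers of other cells and states were set beside these results. Of 7 genes on a seed list, 1 was called higher and 4 lower in sps1 against wild type, and 2 higher and 2 lower in L17. OLEO3, for the oil bodies of seeds, was called higher in both lines, with differences of 0.62 in sps1 and 1.25 in L17. The genes called lower in sps1 were AtLEA4-1, LEA, LEA18 and LEA4-5, of the late embryogenesis abundant proteins. Between sps1 and L17, 2 of the 7 were called, both lower in sps1, where 3.72% of all probe sets were called lower. Their summed signal was 7266 to 7486 in sps1, 12481 to 13959 in L17 and 9082 to 16740 in wild type. The 3 root genes and the 2 genes of dividing cells had no call against wild type. For root the summed signals were 9.23 to 45.9 in sps1, 56.9 to 95.2 in L17 and 50.5 to 129 in wild type. Most signals of the root genes AGL42 and EXPA7 were under 16, so the missing calls say little about root. Only part of the markers sought for root and for dividing cells were named here. For dividing cells the sums were 341 to 353 in sps1, 441 to 518 in L17 and 394 to 421 in wild type, and AUR1 was called lower in sps1 against L17, with a difference of -0.65. A pair of small heat shock protein genes reached a summed signal of 17339 on the third wild type array, and the sums were at most 479 in sps1 and 293 in L17, with no call in either line. The part of these cells and states in the values of the 92 genes was not tested.

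Beyond the genes with names, the largest shared differences belonged to locus IDs. AT2G40960 read 595, 691 and 589 in sps1, 839, 811 and 735 in L17, and 33.9, 14.1 and 45.5 in wild type. AT2G35820 read 3113, 2750.4 and 2895 in sps1, 1925, 1884 and 2374 in L17, and 149, 142 and 134 in wild type, with every sps1 array above every L17 array. AT5G55360 read 400.5, 320.1 and 516 in sps1, 359, 261 and 295 in L17, and 12.2, 9.12 and 25.8 in wild type. In all 3 the wild type arrays lay far below the rest, and AT5G55360 had 2 wild type arrays under 16. AT1G50290 read 4982, 4901 and 5419 in sps1, 2624, 2348 and 1762 in L17, and 307, 201 and 192 in wild type, with the 3 lines apart and sps1 highest. AT4G04460 read 2306, 1771 and 1814 in sps1, 3133, 2903 and 3705 in L17, and 397, 376 and 182 in wild type, with L17 above sps1 on every array. The remaining genes with both differences at 2 or more were AT3G29775, AT2G23480, AT5G24240, AT5G15360, AT1G52990, AT3G32080, AT5G19100, AT3G46500, AT4G22490, AT4G30460 and AT2G07000, besides GSTU23, FOLB1, PDF2.5 and MBAC1. AT4G30460 read 919.6, 916 and 855 in sps1, 1013, 821 and 925 in L17, and 118, 218 and 178 in wild type. AT2G07000 read 392, 262 and 317 in sps1, 311, 337 and 285 in L17, and 56.5, 59.9 and 46.8 in wild type. In both the sps1 and L17 arrays overlapped, and sps1 minus L17 was -0.03 (95% interval -0.49 to 0.43) and 0.04 (95% interval -0.34 to 0.42).

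The comparison of sps1 with L17 was not used to choose the genes, although the rule read the values of both lines. The shares over all probe sets below include many of low signal, so they are not matched to the 92 genes in signal. Of the 92 genes 10 were called (10.9%), against 6.86% of all probe sets. Of these 7 were higher in sps1, where 3.14% of all probe sets were called, and 3 were lower, where 3.72% were called. A call together with a difference of 1 or more was made in 8 genes, against 3.41% of all probe sets. The arrays of the 2 lines did not overlap in 36 genes (39.1%), against 30.7% of all probe sets. They were separate with sps1 above in 18 genes, against 13.7% of all probe sets, and with sps1 below in 18, against 17%. An unadjusted p under 0.05 was reached by 26 genes (28.3%) and by 20.4% of all probe sets. The median of sps1 minus L17 over the 92 genes was 0.05, with a range from -1.57 to 2.07 and 55 estimates above 0, and it was -0.02 over all probe sets. Of the 82 genes that were not called, 58 had a 95% interval within 1 of 0 and 24 had an interval that reached a difference of 1. The count of 10 depended on the setting and lay between 3 and 21 over the alternatives. With the third wild type array left out the count was 20, and it was 17 in a fit of sps1 and L17 alone. Among the largest shared differences, AT2G35820 (limma adjusted p = 0.0618), AT4G04460 (0.178) and AT3G46500 (0.0923) were not called with all arrays and had adjusted p-values of 0.044, 0.0212 and 0.0463 without the third wild type array.

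**Figure D3:**
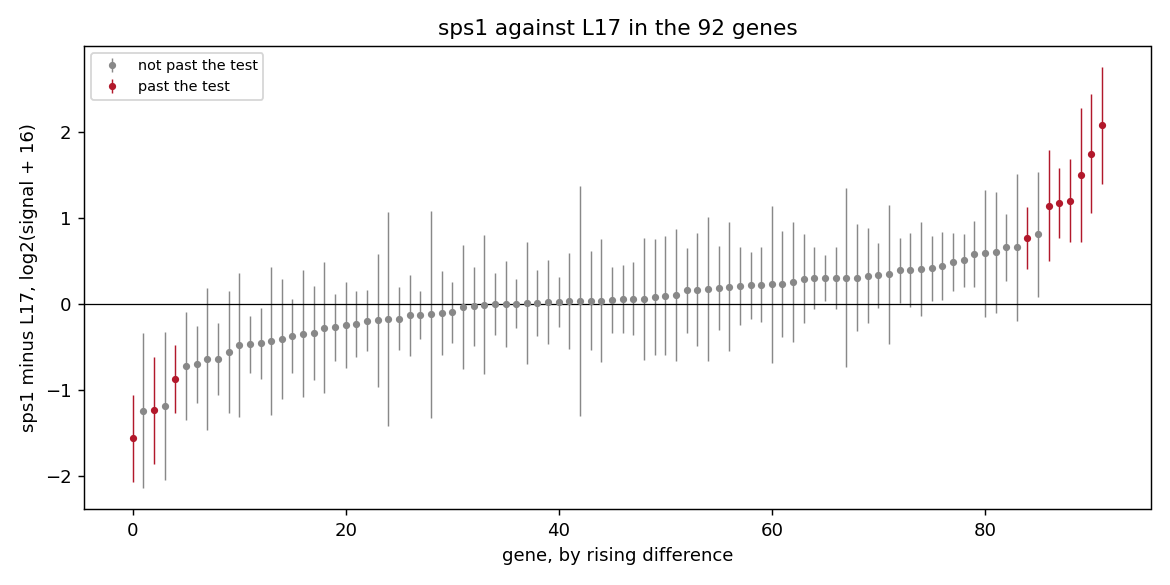
The difference sps1 minus L17 on the log2(signal + 16) scale for the 92 genes, in rising order, with 95% intervals of the limma fit. Red points passed the threshold after adjustment over all probe sets: 3 lie below 0, with AT1G52000 lowest at -1.57, and 7 above 0, with AT5G18840 highest at 2.07.

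AT5G18840 had the largest excess in sps1. Its signal was 399, 391 and 357 in sps1, 105, 68.05 and 67.5 in L17, and 12.6, 11.3 and 44.3 in wild type, so the 3 lines did not overlap. The difference between sps1 and L17 was 2.07 ± 0.30 (SE, limma adjusted p = 0.00492). AT3G29635 read 247, 263 and 262 in sps1, 100.1, 112 and 105 in L17, and 18.3, 23.6 and 39.9 in wild type, with very little spread within sps1 and L17 and a difference of 1.17 ± 0.18 (SE, limma adjusted p = 0.00669). AT1G52000 went the other way, with 131, 107 and 181 in sps1, 451, 436 and 423 in L17, and 23.2, 43.6 and 21.8 in wild type. L17 was highest there without overlap, and sps1 minus L17 was -1.57 ± 0.22 (SE, limma adjusted p = 0.00475). These 3 genes were called with any 1 of the 9 arrays left out, with adjusted p-values up to 0.0279 for AT5G18840, 0.031 for AT3G29635 and 0.0255 for AT1G52000.

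The other 7 calls were lost when at least 1 array was left out. AT1G50290, whose signals are given above, was more than 2-fold higher in sps1 than in L17 by the mean signals of 5100.5 ± 279 in sps1 and 2245 ± 440.3 in L17 (sps1 minus L17 1.20 ± 0.21, SE, limma adjusted p = 0.0122). Its adjusted p was 0.0514 without the third sps1 array. AT2G36145 read 164, 185 and 163 in sps1, 65.0, 37.8 and 23.8 in L17, and 3.11, 20.4 and 4.61 in wild type. Wild type had 2 arrays under 16 there, L17 varied widely, and sps1 was well above both (1.74 ± 0.30, SE, limma adjusted p = 0.0118), a call that was lost without the second L17 array (adjusted p = 0.0508) and with a pseudocount of 1 (adjusted p = 0.109). AT3G01260 read 307, 275 and 348 in sps1, 100.3, 97.9 and 98.97 in L17, and 68.3, 54.01 and 13.1 in wild type. Its sps1 arrays were far above both other lines (1.5 ± 0.34, SE, limma adjusted p = 0.0345).

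AT5G47980 read 288, 284 and 272 in sps1, 116, 111 and 130.5 in L17, and 54.8, 59.4 and 16.9 in wild type, again with the 3 lines apart (sps1 minus L17 1.14 ± 0.28, SE, limma adjusted p = 0.0488). AT4G26860 read 1466, 1384 and 1360.4 in sps1, 703, 884 and 888 in L17, and 423, 379 and 305 in wild type, with a smaller difference and no overlap (0.76 ± 0.16, SE, limma adjusted p = 0.0244). AT2G15560 was called lower in sps1 and read 185, 186 and 158 in sps1, 448, 425 and 437 in L17, and 46.8, 26.3 and 85.8 in wild type. All L17 arrays were far above the sps1 arrays, whose difference from L17 was -1.24 ± 0.27 (SE, limma adjusted p = 0.0305). The calls of AT3G01260, AT5G47980, AT4G26860 and AT2G15560 were each lost when any sps1 or L17 array was left out, with adjusted p-values up to 0.115, 0.152, 0.0816 and 0.105 in that order, and that of AT5G47980 also without the first wild type array (adjusted p = 0.0559). With a pseudocount of 1 the adjusted p was 0.145 for AT3G01260, 0.164 for AT5G47980 and 0.0965 for AT2G15560, and after quantile normalisation it was 0.0731 for AT5G47980.

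**Figure D4:**
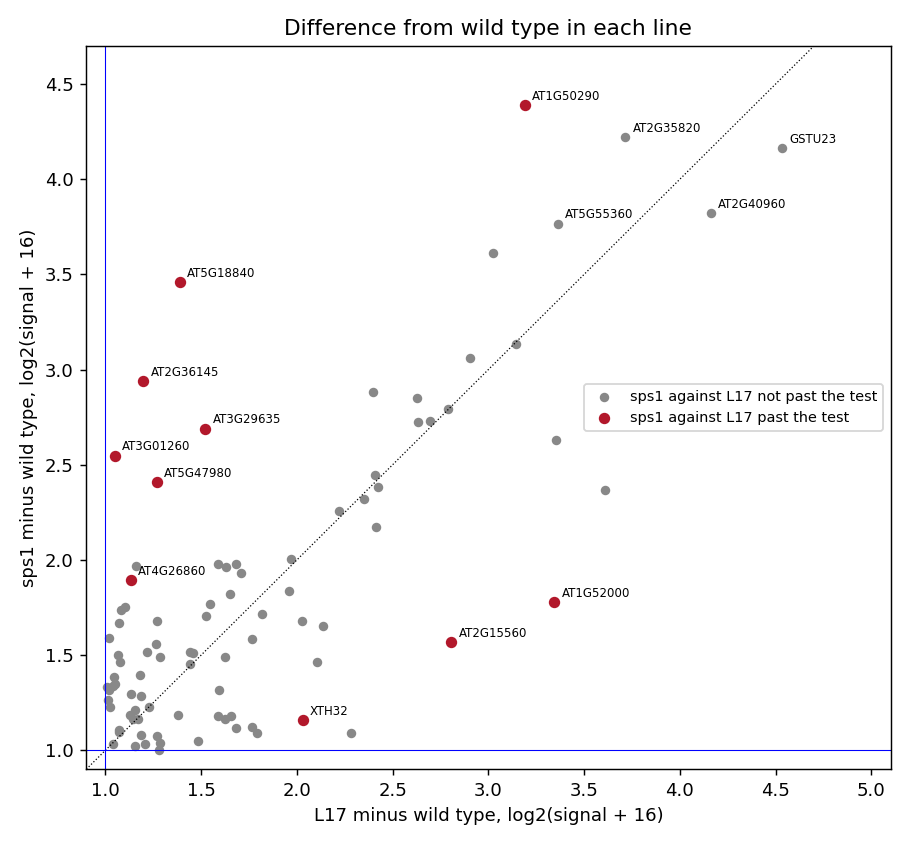
The difference sps1 minus wild type against L17 minus wild type for the 92 genes, both on the log2(signal + 16) scale. The blue lines mark the limit of 1 that chose the genes, the dotted line marks equal differences, and the 10 red points were called in sps1 against L17. Both axes hold the same wild type arrays. GSTU23 lies at 4.54 and 4.16, and AT5G18840 at 1.39 and 3.46.

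At the other end, low signals limited what could be read. In 7 genes all 3 wild type arrays were under 16, which is the added constant, in 25 genes some were, and in 60 none was. The 7 were AT2G23480, AT3G32080, AT1G58025, AT2G42140, AT1G26530, AT3G29410 and AT3G26110, and in the last 5 an sps1 or L17 array was also under 16. AT3G29410 read 49.8, 41.8 and 6.76 in sps1, 61.02, 120.1 and 82.1 in L17, and 3.96, 5.57 and 4.84 in wild type. There the third sps1 array was nearly as low as wild type, while all L17 arrays were clearly above both. AT1G58025 read 34.7, 60.5 and 57.7 in sps1, 88.3, 120.1 and 10.1 in L17, and 0.977, 2.30 and 4.28 in wild type, where the third L17 array was close to wild type. Among the genes called in neither or only 1 line against wild type, 7 were not called in sps1 and 12 were not called in L17. AT3G23450, AT1G70880 and AT1G29090 were called in neither and had the widest wild type ranges of all, at 2.59, 2.37 and 1.99 on the log2(signal + 16) scale. In each the third wild type array was the low one, as in AT1G70880 with 233, 244 and 244 in sps1, 281, 287 and 255 in L17, and 132, 132 and 12.5 in wild type. The narrowest wild type ranges were 0.07 in AT3G05810, 0.11 in AT3G29410 and 0.12 in OCT4. AT3G05810 read 780.3, 912 and 859 in sps1, 659, 724 and 682 in L17, and 335, 338 and 321 in wild type, with small spread in every line. Its L17 difference of 1.02 lay close to the limit, and without the third wild type array or the second L17 array it no longer met the rule.

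By position, 28 of the 92 genes lay on chromosome 5 (30.4%), where 22.5% of the nuclear genes named here lie, and 17 lay on chromosome 1 (18.5%), where 25.7% lie. Chromosomes 2, 3 and 4 held 15, 19 and 13 of them (16.3%, 20.7% and 14.1%), against 16.4%, 20.5% and 14.6% of the nuclear genes named. These shares are given as a description. RefSeq annotates 5 of the 92 as pseudogenes (5.43%), against 7.46% of the nuclear genes named: AT3G29775, AT2G23480, AT3G32080, and, as transcribed pseudogenes, AT5G40920 and AT1G30940. AT3G29775 read 304, 205 and 292 in sps1, 205, 320.3 and 285 in L17, and 19.7, 1.98 and 34.2 in wild type, with all wild type arrays far below both lines. AT2G23480 read 409, 168 and 263 in sps1, 127, 216 and 179 in L17, and 13.97, 2.40 and 5.70 in wild type. AT3G32080 read 221, 72.98 and 162 in sps1, 112, 72.7 and 191 in L17, and 1.15, 8.88 and 7.51 in wild type, with wide spread in both lines. Probe sets that can read several related transcripts by design stood behind 3 of the 92 genes, AT2G23480, AT2G07695 and AT1G30940, and such probe sets make up 2.07% of the nuclear ones, so reads of related copies cannot be told apart there. AT2G07695 lies on chromosome 2 in the part known to hold a copy of mitochondrial DNA. It read 133, 223 and 250.0 in sps1, 435, 402 and 176 in L17, and 59.8, 108 and 81.9 in wild type, with sps1 and L17 overlapping.

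Neighbouring genes were looked for as members that lie within 5 genes of each other in the RefSeq gene order, and 3 pairs were found, all on chromosome 5. AT5G19100 read 479.8, 392 and 445 in sps1, 416, 465 and 402 in L17, and 51.3, 51.1 and 112 in wild type. Its neighbour AT5G19110 read 84.9, 94.9 and 87.3 in sps1, 86.04, 109 and 147 in L17, and 52.5, 28.1 and 8.88 in wild type. Both had all wild type arrays below the rest, although the third wild type array was the highest of the wild type arrays in AT5G19100 and the lowest in AT5G19110. The next gene, AT5G19120, did not share the difference, at -0.16 in sps1 and 0.29 in L17. AT5G27220 read 275, 263 and 219 in sps1, 252, 240.3 and 251 in L17, and 101, 112 and 115 in wild type. AT5G27240 read 71.8, 73.0 and 78.5 in sps1, 60.02, 90.3 and 105 in L17, and 22.4, 40.2 and 25.03 in wild type. In both the sps1 and L17 arrays overlapped above all wild type arrays, and AT5G27230 between them differed from wild type by -0.21 in sps1 and 0.08 in L17, neither called.

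The third pair was AT5G47950 and AT5G47980. AT5G47950 read 752, 642 and 668 in sps1, 566, 681 and 548 in L17, and 383, 404 and 146 in wild type, with sps1 and L17 overlapping and the third wild type array far below the other 2. AT5G47980, described above, was higher in sps1 than in L17, whereas AT5G47950 was not called in that comparison (sps1 minus L17 0.20, limma adjusted p = 0.811). AT5G47970 between them was not called against wild type, with 0.56 in sps1 (limma adjusted p = 0.0941) and 0.53 in L17 (limma adjusted p = 0.125). AT5G47940 on the other side of AT5G47950 was called lower in both lines, with differences of -1.21 in sps1 and -1.05 in L17. Without the third wild type array AT5G19110, AT5G27240, AT5G47950 and AT5G47980 did not meet the rule. AT5G27240, whose smaller difference of 1.02 lay close to the limit, also failed it without the first wild type array or the third sps1 array. AT5G47950, with a smaller difference of 1.03, also failed it without the second L17 array.

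**Figure D5:**
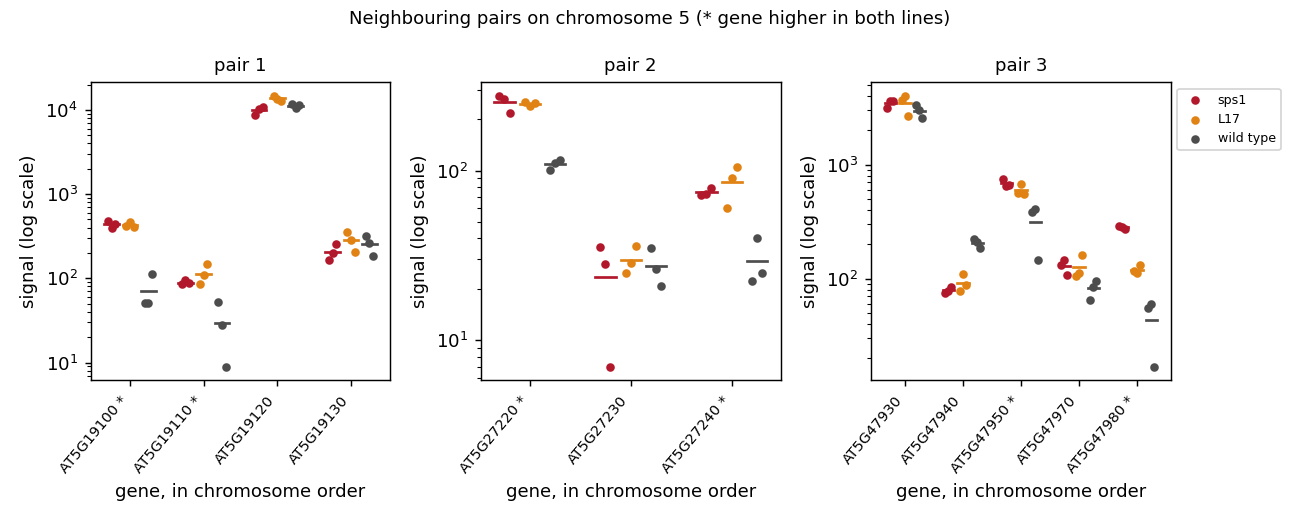
Signals on a log axis of the 3 neighbouring pairs on chromosome 5 and of the genes beside and between them that a probe set names, in chromosome order, with sps1, L17 and wild type from left to right. Points are arrays, lines are means of 3 arrays and stars mark the genes higher in both lines. AT5G47940, left of the third pair, was lower in sps1 and L17 than in wild type, with differences of -1.21 and -1.05.

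Of the 92 genes only AT3G61010 has 2 probe sets that name it alone, and they gave different values. The probe set that met the rule read 419, 369.9 and 328 in sps1, 279, 276 and 282 in L17, and 142, 139 and 96.1 in wild type. The other probe set read 49.8, 36.4 and 50.6 in sps1, 47.9, 40.98 and 46.2 in L17, and 33.7, 22.7 and 38.7 in wild type. In the second the sps1 arrays overlapped those of L17 and of wild type, and every L17 array lay above every wild type array, with differences from wild type of 0.37 in sps1 (limma adjusted p = 0.187) and 0.37 in L17 (limma adjusted p = 0.213), neither called. The part of the transcript that each probe set reads was not analysed here.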

How the data were processed

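Biotin-labelled RNA of whole seedlings was hybridised to 9 Affymetrix arrays, per the labels' protocols. The authors deposited an intensity for every probe set, on a linear scale, and the submitters' processing notes name GCOS. The summary algorithm, the scaling target, detection calls and a genome build were not given in the sources used here. Arrays came scaled to a common level in the deposited intensity table, and no further normalization was applied. Lines and replicate numbers came from the labels.

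The 64 control probe sets were left out. The scale was log2(signal + 16), on which changes of low signals appear smaller than they are. Limma 3.58.1 in R 4.3.3 fitted all 9 arrays with 3 lines and no block (lmFit, eBayes), with Benjamini-Hochberg adjustment over 22746 probe sets and a threshold of 0.05. The script was tested on simulated data. The number of arrays limits the precision. Of the probe sets 13513 name 1 gene (13436 matched the RefSeq gene table of TAIR10.1, used for names, chromosomes and gene order), 503 name several and 8730 are unnamed here.

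The 92 genes and all gene lists were chosen with earlier results of these data known. Named genes were the 20 largest shared differences, all calls of sps1 against L17, list members, genes next to the limit, neighbouring pairs, and the 3 widest and 3 narrowest wild type ranges. Other genes were named after their values were seen. Lists were matched by symbol and synonym, since the gene table holds no product text. Alternatives were other pseudocounts, scalings, filters, limits and fits, a replicate block and each array left out.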

Additional observations from a re-analysis of the deposited data

Results flagged for a closer look

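The test of sps1 against L17 called 10 of the 92 genes (10.9%), against 6.86% of all probe sets. Of these calls, 7 were lost when at least 1 array was left out. The difference sps1 minus L17 on the log2(signal + 16) scale was 2.07 for AT5G18840, 1.741 for AT2G36145, 1.497 for AT3G01260, 1.196 for AT1G50290, 1.168 for AT3G29635, 1.14 for AT5G47980 and 0.7625 for AT4G26860. It was -0.8736 for XTH32, -1.239 for AT2G15560 and -1.567 for AT1G52000. In each of the 10 genes all sps1 arrays lay on one side of all L17 arrays, as they did in 30.7% of all probe sets. The call rests on these same arrays, so the separation adds no support to it.

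Probe sets outside the gene comparisons also met the differences and the array condition. There were 94 such probe sets among those without a gene name (1.08% of them, against 0.686% of nuclear probe sets that name 1 gene), and 6 among those that name several genes (1.19%). The smaller of the 2 differences from wild type had a median of 1.26 and a maximum of 4.20 over the 94, and both differences were 2 or more in 7 of them. No gene was tested for a single outlying array, because each line has 3 arrays.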

How the results depend on the processing

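Against wild type the number of the 92 genes called stayed within 1.5 times its value under every alternative run. It was 85 in sps1, with 64 to 89 over the alternatives, and 80 in L17, with 62 to 87. Leaving out 1 array gave 74 to 85 in sps1 and 67 to 82 in L17. Of the 69 genes left at a mean signal of 100 or more, 69 were called in sps1 and 68 in L17. The rule chose the genes by these 2 comparisons, so nothing is read from these counts or from how little they moved. The number of genes that met the rule, 92, was 159 with a pseudocount of 1, 43 with a pseudocount of 64, 36 with a difference of 1.5 or more, and 90 to 140 with 1 array left out. It was 140 without the first wild type array and 100 without the third. Quantile normalisation gave 121, median centring 112, a mean signal of 100 or more 69, and no condition on single arrays 96. Without probe sets that can read several related transcripts, an alternative chosen after seeing the data, 89 genes met the rule and 10 were called in sps1 against L17.

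The number called in sps1 against L17, 10, was 6 with a pseudocount of 1 and 18 with a pseudocount of 64. With a mean signal of 100 or more it was 17 of the 69 genes left, adjusted over fewer probe sets. Array weights gave 21, trended and robust moderation 16, a fit of those 2 lines alone 17 and an adjusted p under 0.01 gave 3. The number called was 4 to 20 with 1 array left out: 20 without the third wild type array, 5, 4 and 6 without replicates 1, 2 and 3 of L17, and 6, 5 and 4 without replicates 1, 2 and 3 of sps1. With fewer arrays of a compared line fewer genes were called. Median centring gave 13 and quantile normalisation 10. The cause of the other changes was not tested. With replicate numbers as a replicate block, 6 genes were called in sps1 against L17, 82 in sps1 against wild type and 76 in L17 against wild type. The calls of sps1 against L17 that were lost under the block were those of AT3G01260 (adjusted p = 0.0645), AT5G47980 (0.0804), AT4G26860 (0.0683) and AT2G15560 (0.06). The labels do not say that replicate numbers pair the arrays, and deviations of same-numbered arrays from their line means correlated at -0.0795 to 0.0589 across probe sets.

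For the 51 named genes, no alternative reversed the sign of a call in sps1 against L17. Over all of them 843 values stayed on the same side of the threshold, 41 calls were lost and 26 were gained. Low signals and 3 arrays a line limit what can be seen: 24 of the 82 genes without a call have an interval that reaches a difference of 1.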
